A study of Mus musculus with 4 samples.

Results

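In the injured mouse brain 9 genes were followed, namely 8 chemokine ligands that draw monocytes and related phagocytes into tissue and the receptor Ccr2. They were taken by gene symbol from the 32285 genes counted in the files, by a rule that uses no measured value, though the set was drawn up with earlier results of these data known. The ligands were Ccl2, Ccl7, Ccl8 and Ccl12, the monocyte chemoattractant group, and Ccl3, Ccl4, Ccl6 and Ccl9, the macrophage inflammatory group. All 9 were counted in every injured slice, but several rested on few unique molecular identifiers (UMIs, one per captured RNA molecule), and group sums are given beside them.

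Brain slices were laid on Visium capture areas, glass squares whose barcoded spots trap messenger RNA from the tissue above them. A spot covers several cells of different types, so values describe places and not cells, and fewer cells of a type and less RNA per cell cannot be told apart. There were 4 capture areas with 2 slices each, and by the methods each slice came from 1 mouse. The injury was photothrombotic (PT), in which light and a dye close the vessels of a cortical patch, and time was counted in days post injury (dpi). The first area held 1 wild-type (WT) slice at rest and 1 WT slice at 2 dpi, and the second held 2 WT slices at 7 dpi. The labels do not say which piece of the first area is which, and the smaller one was taken as the slice at rest, so every value given for rest and 2 dpi hangs on that assignment. A further area held 2 WT slices at 21 dpi. On the remaining area lay the brains of 2 Cthrc1 creER; Rosa26 DTA mice, likewise at 21 dpi. In that cross, tamoxifen-activated Cre under Cthrc1 control is meant to switch on diphtheria toxin in myofibroblasts, and the authors set the mice aside because no deletion could be seen. They are called deleter mice here. Every later group sat on a capture area of its own, so time or genotype and capture area cannot be told apart, and slice numbers carry no meaning.

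Chemokines are small secreted proteins that bind seven-pass receptors on white blood cells and guide them along a gradient. CCR2, bound by CCL2, CCL7 and CCL12, marks classical monocytes and lets them leave the marrow and enter injured tissue, where they become macrophages. CCL3 acts through CCR1 among other receptors, CCL4 is its close relative, and CCL6 and CCL9 are mouse ligands of CCR1. In the injured brain these ligands are made by microglia, macrophages, astrocytes, vessel cells and fibroblasts.

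The ligand genes lie in 2 blocks on chromosome 11 of GRCm38, the assembly also called mm10 to which the authors aligned. Ccl2 (chr11:82035571-82037453), Ccl7 (chr11:82045712-82047525), Ccl12 (chr11:82101845-82103400) and Ccl8 (chr11:82115185-82116799) stand on the plus strand, and the starts of Ccl2 and Ccl8 are 79.6 kb apart. Ccl9, Ccl6, Ccl3 and Ccl4 fill a second block that starts 1463 kb further on and spans 83.9 kb between the starts of Ccl9 and Ccl4. Ccr2 lies apart from them, at chr9:124101950-124113557. Ccl12 and Ccl8 are neighbours whose starts are 13.3 kb apart, and over whole slices Ccl12 was highest at 2 dpi and Ccl8 at 21 dpi. The 250 bases before each start are therefore shown, from RefSeq on GRCm38.p6, at chr11:82101595-82101844 and chr11:82114935-82115184, with the letters TATAAA in capitals.

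Ccl12: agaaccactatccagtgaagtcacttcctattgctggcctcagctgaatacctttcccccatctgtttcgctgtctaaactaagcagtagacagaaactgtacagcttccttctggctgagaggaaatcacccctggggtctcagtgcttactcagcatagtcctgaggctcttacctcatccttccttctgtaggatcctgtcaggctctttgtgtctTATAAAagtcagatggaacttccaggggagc
Ccl8: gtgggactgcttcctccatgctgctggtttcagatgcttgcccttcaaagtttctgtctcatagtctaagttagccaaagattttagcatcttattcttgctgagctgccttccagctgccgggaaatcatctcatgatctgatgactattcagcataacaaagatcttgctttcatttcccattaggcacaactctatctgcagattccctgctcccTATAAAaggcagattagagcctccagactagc

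Both carry TATAAA at nearly the same place, from base -31 in Ccl12 and from base -32 in Ccl8, counted back from the start. Of 32851 promoters searched on both strands, 12.4% held these letters somewhere in the same window. The letters TGANTCA (AP-1), TTCNNNGAA (STAT) and the NF-kB motif, in 6.75%, 7.02% and 7.25% of promoters, were found in neither window. A promoter sequence was held for 6 of the 9 genes, and among them only Ccl9 carried AP-1 and NF-kB letters.

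Between 827 and 1726 spots lay under a slice, with 11332780 to 23677298 UMIs in all and a median of 12447 to 16158 UMIs per spot, except at 2 dpi, where the median was 2633.5 and 375 of 1726 spots held under 1000 UMIs. Those RNA-poor spots are named as such below. Spots with at least 5 Col1a1 UMIs per 10000 are called fibrotic, since Col1a1 encodes the main fibroblast collagen, and spots with 0 are called Col1a1-free. At 7 and 21 dpi a slice held 112 to 392 fibrotic and 228 to 651 Col1a1-free spots. A further 327 to 666 spots of a slice, with Col1a1 UMIs but under 5 per 10000, are called intermediate and entered neither region. Fibrotic spots had medians of 4923.5 and 9206.5 UMIs at 7 dpi, against 10828 and 13879 at 21 dpi WT. Col1a1-free spots had medians of 16149 and 17361.5 at 7 dpi, against 11718 and 11061 at 21 dpi WT. Depth per spot thus differed between the times and, at 7 dpi, between the regions. The slice at rest had 3 fibrotic spots and the slice at 2 dpi 26, of which 17 rested on a single Col1a1 UMI, so neither time is described by its fibrotic spots. The fibroblast genes Col1a2, Col3a1, Dcn, Lum, Pdgfra and Pdgfrb together gave 38.5 to 106 UMIs per 10000 in the fibrotic spots of the later slices and 1.13 to 1.35 in their Col1a1-free spots.

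All 9 genes were near silent at rest and present at 2 dpi. In the slice at rest Ccl2 gave 7 UMIs, Ccl12 gave 38, Ccl6 gave 44, Ccl9 gave 68 and Ccr2 gave 8, out of 16355749. At 2 dpi the same genes gave 588, 1303, 384, 339 and 132, out of 13091188. With 1 slice at each time there was no test, and the intervals given here are exact 95% Poisson intervals that cover counting error alone.

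Ccl2, the leading CCR2 ligand, went from 0.00428 to 0.449 UMIs per 10000, a ratio of 105 (50.6 to 262). Ccl12, a CCR2 ligand of the mouse, went from 0.0232 to 0.995, a ratio of 42.8 (31.0 to 60.8). In both genes the interval lay far above 1.

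Ccl7 had 0 UMIs at rest and 118 at 2 dpi, a ratio with a lower limit of 39.3 and no upper limit. Against a floor of 3 UMIs in the slice at rest the ratio was 49.1. Ccl8 went from 1 UMI to 46, a ratio of 57.5 (9.81 to 2319), and Ccl3 from 1 to 102, a ratio of 127 (22.4 to 5082). Both ratios hang on a single UMI at rest. Ccl4 went from 4 to 178 UMIs, a ratio of 55.6 (21.3 to 206).

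For Ccl6 and Ccl9 the ratios were smaller. Ccl6 went from 0.0269 to 0.293 UMIs per 10000, a ratio of 10.9 (7.97 to 15.3). Ccl9 went from 0.0416 to 0.259, a ratio of 6.23 (4.79 to 8.21). The receptor Ccr2 went from 0.00489 to 0.101, a ratio of 20.6 (10.2 to 48.7).

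**Figure D1:**
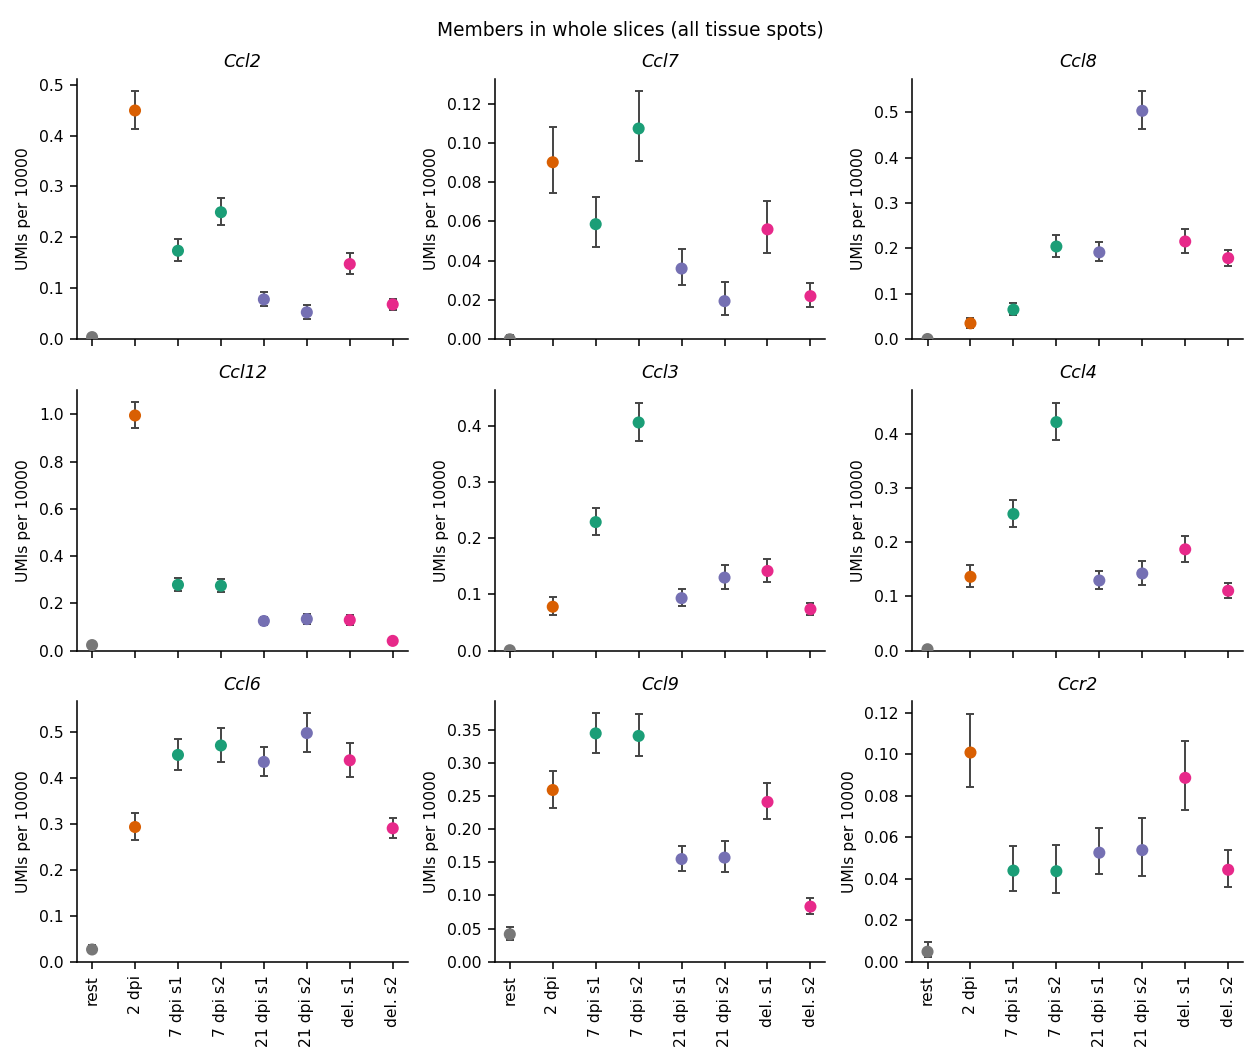
UMIs per 10000 of each gene over all tissue spots of the 8 slices (points, with exact 95% Poisson intervals as bars; s1 and s2, slices 1 and 2; del., deleter). Ccl12 and Ccl2 stand highest at 2 dpi (0.995 and 0.449), Ccl3, Ccl4 and Ccl9 highest in both 7 dpi slices, and Ccl8 highest in slice 2 at 21 dpi (0.503).

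Over whole slices the genes then followed different courses. Ccl12 was 0.995 UMIs per 10000 at 2 dpi, 0.278 and 0.275 at 7 dpi, and 0.125 and 0.133 at 21 dpi WT. Ccl2 took a like course, with 0.449 at 2 dpi, 0.174 and 0.249 at 7 dpi, and 0.0783 and 0.0529 at 21 dpi WT. In both genes the slices of the 3 times did not overlap, each later time being lower.

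Ccl3, which encodes a ligand of CCR1, was 0.0779 at 2 dpi, 0.228 and 0.406 at 7 dpi, and 0.0932 and 0.13 at 21 dpi WT. Ccl4, which encodes macrophage inflammatory protein 1 beta, was 0.136, then 0.252 and 0.421, then 0.129 and 0.142. Ccl9 was 0.259, then 0.344 and 0.340, then 0.155 and 0.157. In each of these genes the 7 dpi slices stood above all other slices. Ccl7 was 0.0901 at 2 dpi, 0.0586 and 0.107 at 7 dpi, and 0.0360 and 0.0194 at 21 dpi WT, so its 2 dpi value lay between the 7 dpi slices.

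Ccl8 ran the other way, with 0.0351 at 2 dpi, 0.0653 and 0.204 at 7 dpi, and 0.191 and 0.503 at 21 dpi WT, so the 7 and 21 dpi slices overlapped. Ccl6 stayed between 0.435 and 0.498 in all 4 WT slices of 7 and 21 dpi. Ccr2 was 0.044 and 0.0437 at 7 dpi, against 0.0526 and 0.0538 at 21 dpi WT, about equal in the 4 slices and lower in each than the 0.101 at 2 dpi. Slice 2 at 7 dpi held 392 fibrotic spots and slice 1 held 112. Ccl2, Ccl7, Ccl8, Ccl3 and Ccl4 were higher in slice 2, whereas Ccl12, Ccl6, Ccl9 and Ccr2 were about equal in both. How far whole-slice values depend on that area was not tested.

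Where the ligands lay at 2 dpi differed from gene to gene. Spots of the slice at 2 dpi were sorted by their distance, in steps from spot to neighbouring spot, from the nearest of the 375 RNA-poor spots. Ccl12 was 0.38 UMIs per 10000 in RNA-poor spots, 0.905 at 2 to 3 steps, 1.36 (1.25 to 1.47) at 4 to 7 steps and 0.799 at 8 or more. Its maximum lay in spots with a median of 14741 UMIs, outside the RNA-poor rim.

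Per 10000 UMIs Ccl2 peaked nearer, with 0.211 in RNA-poor spots, 0.999 (0.826 to 1.20) at 2 to 3 steps, 0.539 at 4 to 7 steps and 0.259 beyond. Ccr2 peaked in the same bin, with 0.0843 from 2 UMIs in RNA-poor spots, then 0.376 (0.273 to 0.504), then 0.098 and 0.0273. Ccl6 was 0.871 (0.710 to 1.06) at 2 to 3 steps and 0.204 (0.166 to 0.250) at 4 to 7 steps.

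Ccl3, Ccl4 and Ccl9 also had their highest value at 2 to 3 steps (0.29, 0.47 and 0.657). Ccl7 was about equal in RNA-poor spots, at 1 step and at 2 to 3 steps (0.211, 0.221 and 0.188), and Ccl8 was highest in the RNA-poor spots themselves (0.169, from 4 UMIs). The bins differed in depth, with a median of 3078 UMIs per spot at 2 to 3 steps and 14741 at 4 to 7 steps. Ccl2 and Ccl9 gave 117 and 77 UMIs in the 237 spots at 2 to 3 steps. In the 314 spots at 4 to 7 steps they gave 253 and 108, so per spot both were higher there. The place of a highest value can thus depend on the scale. The spots came from 1 slice, so no test was made.

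**Figure D2:**
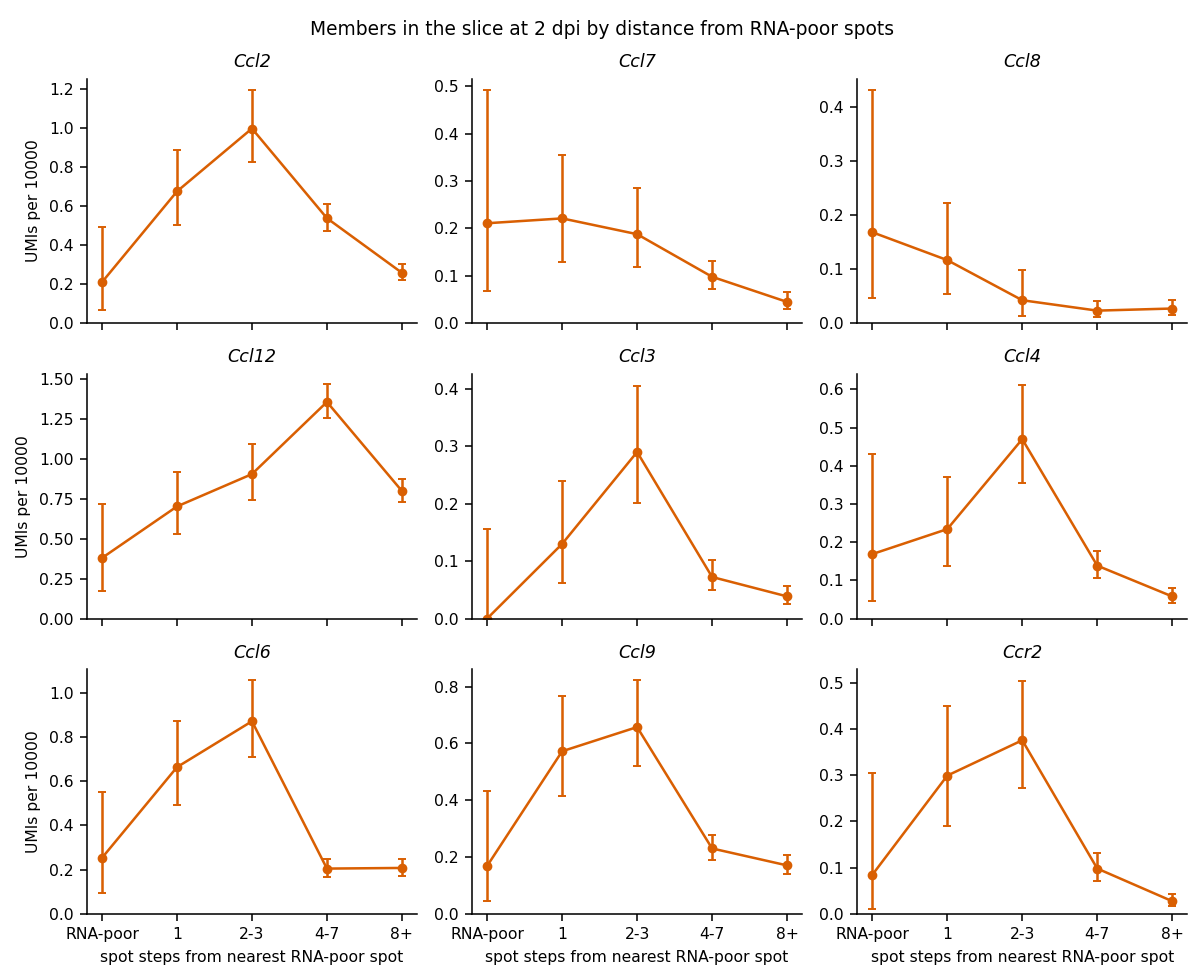
UMIs per 10000 of each gene in the slice at 2 dpi against distance from the nearest spot with under 1000 UMIs, in spot steps (bars, exact 95% Poisson intervals). Ccl12 is highest at 4 to 7 steps (1.36), whereas Ccl2, Ccr2, Ccl6, Ccl3, Ccl4 and Ccl9 are highest at 2 to 3 steps.

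At 7 and 21 dpi all 9 genes were higher in fibrotic than in Col1a1-free spots of the same slices. The sums of both regions were fitted with the slice as a block in edgeR's quasi-likelihood test, with Benjamini-Hochberg adjustment over 14477 genes. At 7 dpi 9 of 9 were called higher in fibrotic spots, where 22.2% of all genes tested were, and at 21 dpi WT again 9 of 9, where 29.0% were. The median log2 fold change of the 9 was 2.13 at 7 dpi and 3.78 at 21 dpi, and over all genes it was 0.01 at 21 dpi and 0.00 at 7 dpi.

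Ccl2 gave 0.661 and 0.608 UMIs per 10000 in the fibrotic spots of the 7 dpi slices and 0.0957 and 0.041 in their Col1a1-free spots. Its log2 fold change was 3.33 ± 0.28 (SE, edgeR adjusted p = 2.24e-05). At 21 dpi the fibrotic spots gave 0.179 and 0.161 and the Col1a1-free spots 0.0251 and 0.0151, for 3.06 ± 0.37 (edgeR adjusted p = 6.43e-05). In each of the 4 slices the fibrotic value of Ccl2 lay above the Col1a1-free value.

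Ccl8, encoding MCP-2, gave 0.413 and 0.553 in fibrotic and 0.0352 and 0.0179 in Col1a1-free spots at 7 dpi, a log2 fold change of 4.19 ± 0.35 (edgeR adjusted p = 2.32e-05). At 21 dpi the fibrotic spots gave 1.18 and 1.83 and the Col1a1-free spots 0.0224 and 0.0151, for 6.15 ± 0.32 (edgeR adjusted p = 4.05e-07). That was the largest excess of the 9 genes. The smallest was that of Ccl12, with 1.51 ± 0.25 at 7 dpi and 1.85 ± 0.28 at 21 dpi.

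Ccl12 gave 0.449 and 0.437 in fibrotic spots at 7 dpi and 0.204 and 0.136 in Col1a1-free spots. Without slice 2 at 7 dpi its excess there was 1.23 and did not pass the threshold. Every other excess at 7 and 21 dpi passed with each slice left out in turn.

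Ccr2 gave 0.283 and 0.112 in fibrotic spots at 7 dpi and 0.0211 and 0.00256 in Col1a1-free spots, the last from 1 UMI. Its log2 fold change was 4.13 ± 0.41 at 7 dpi and 4.26 ± 0.39 at 21 dpi WT (edgeR adjusted p = 5.02e-05 and 1.06e-05). At both times the receptor, like the ligands, was higher in fibrotic spots.

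Ccl7 gave 38 and 126 UMIs in fibrotic spots at 7 dpi and 21 and 5 in Col1a1-free spots, and its log2 fold change was 4.19 ± 0.45 (edgeR adjusted p = 8.41e-05). At 21 dpi WT it was 4.23 ± 0.64 (edgeR adjusted p = 0.000306), from 30 and 16 UMIs against 4 and 2. Ccl7 was thus sparse in Col1a1-free spots at both times.

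Among the macrophage inflammatory ligands Ccl3 had an excess of 2.03 ± 0.33 at 7 dpi and 3.78 ± 0.46 at 21 dpi WT (edgeR adjusted p = 0.000810 and 7.29e-05). Ccl4 had 2.02 ± 0.38 and 3.72 ± 0.50 (edgeR adjusted p = 0.00198 and 0.000131). Ccl9 had 2.13 ± 0.27 and 2.93 ± 0.31 (edgeR adjusted p = 0.000217 and 2.99e-05). In slice 2 at 21 dpi the Col1a1-free spots held 3 UMIs of Ccl3 and 1 of Ccl4.

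Markers of phagocytes and monocytes lay in the same places. The 10 macrophage and phagocyte genes (Cd68, Lyz2, Aif1, Csf1r, C1qa, C1qb, C1qc, Adgre1, Cd14 and Itgam) summed to 103 to 133 UMIs per 10000 in fibrotic spots of the 4 WT slices and 6.62 to 33.1 in Col1a1-free spots. All 10 were called higher in fibrotic spots at both times, as were all 6 monocyte genes (Ly6c2, Plac8, Chil3, Vcan, Ms4a4c and S100a4). Microglial genes were higher too in 4 of 6, and the part of cell composition in the chemokine values was not tested.

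**Figure D3:**
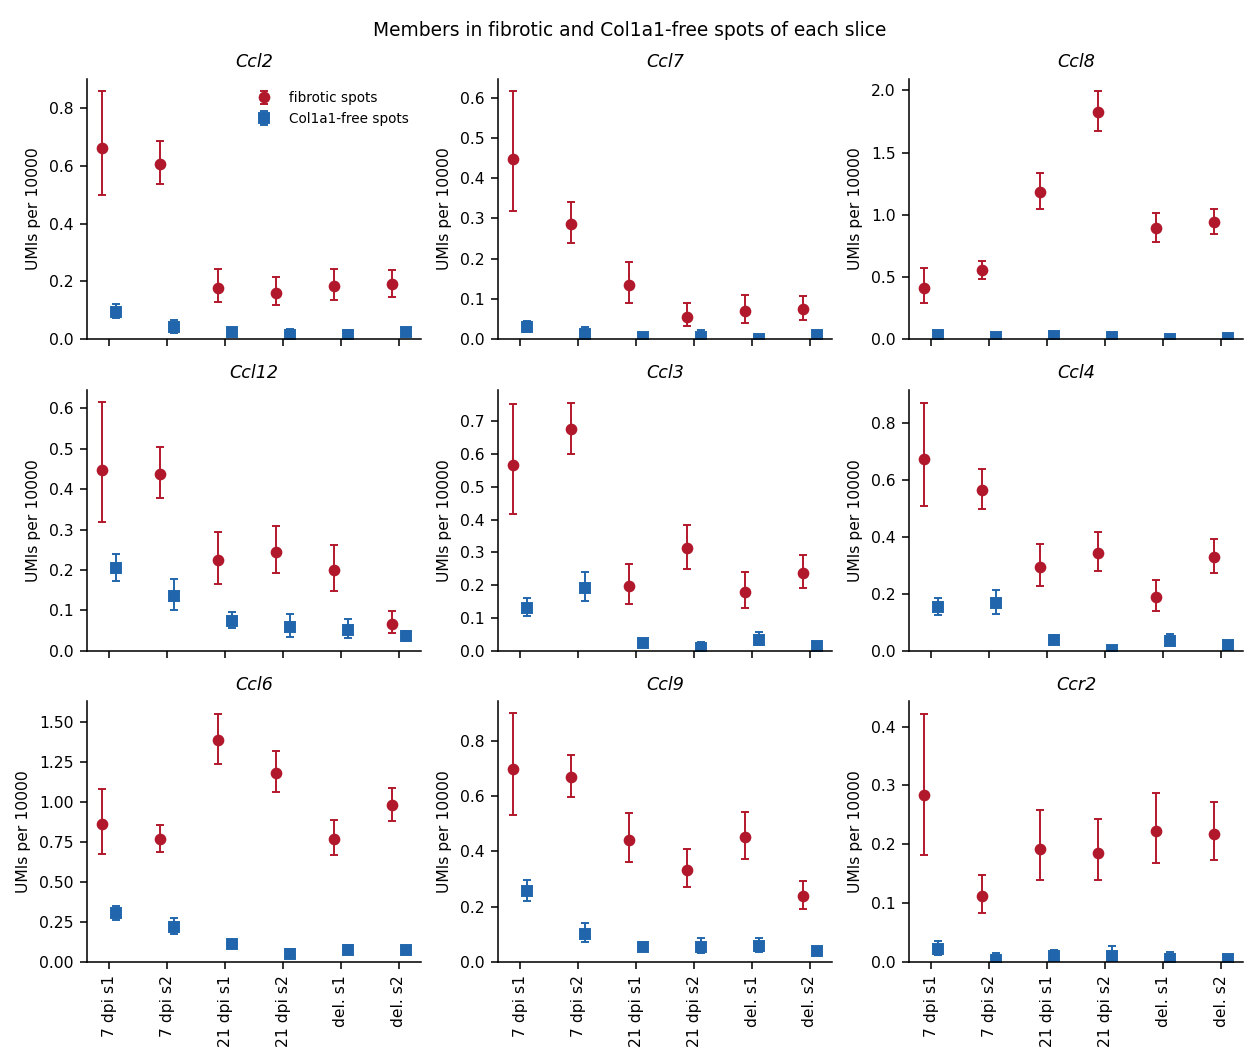
UMIs per 10000 of each gene in fibrotic spots (red circles) and Col1a1-free spots (blue squares) of the 6 slices at 7 dpi, 21 dpi and 21 dpi deleter (bars, exact 95% Poisson intervals). In every slice and gene the fibrotic value lies above the Col1a1-free value, and the Ccl8 value in fibrotic spots is higher at 21 dpi WT (1.18 and 1.83) than at 7 dpi (0.413 and 0.553).

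The reach of each gene around the fibrotic spots also differed. Ccl8 was highest in the fibrotic spots themselves. In slice 2 at 21 dpi it was 1.83 UMIs per 10000 in fibrotic spots and 0.17 at 1 step, and in slice 1 it was 1.18 and 0.0962. At 7 dpi it was 0.413 and 0.553 in fibrotic spots and 0.15 and 0.112 at 1 step. Its highest value was thus inside the fibrotic spots in all 4 WT slices.

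Ccl7 and Ccr2 had the same shape at 7 dpi, Ccl7 with 0.449 and 0.287 in fibrotic spots and 0.043 and 0.0647 at 1 step, and Ccr2 with 0.283 and 0.112 against 0.043 and 0.0412. For the macrophage inflammatory ligands the values near the fibrotic spots were closer to those inside. Ccl4 at 7 dpi was 0.673 in fibrotic spots, 0.849 at 1 step, 0.701 at 2 steps and 0.316 at 3 to 4 steps in slice 1, and 0.564, 0.606, 0.895 and 0.364 in slice 2.

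Ccl6 at 7 dpi was 0.862 in fibrotic spots and 1.41 at 2 steps in slice 1, and 0.769 and 0.7 in slice 2. At 21 dpi WT it was 1.39 and 1.18 in fibrotic spots and 0.312 and 0.227 at 2 steps. Ccl12 at 7 dpi had 0.449 in fibrotic spots and 0.821 at 2 steps in slice 1, and 0.437 and 0.39 in slice 2. Beyond 8 steps all 4 macrophage inflammatory ligands together gave 0.707 and 0.178 at 7 dpi, against 0.262 and 0.0917 at 21 dpi WT.

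**Figure D4:**
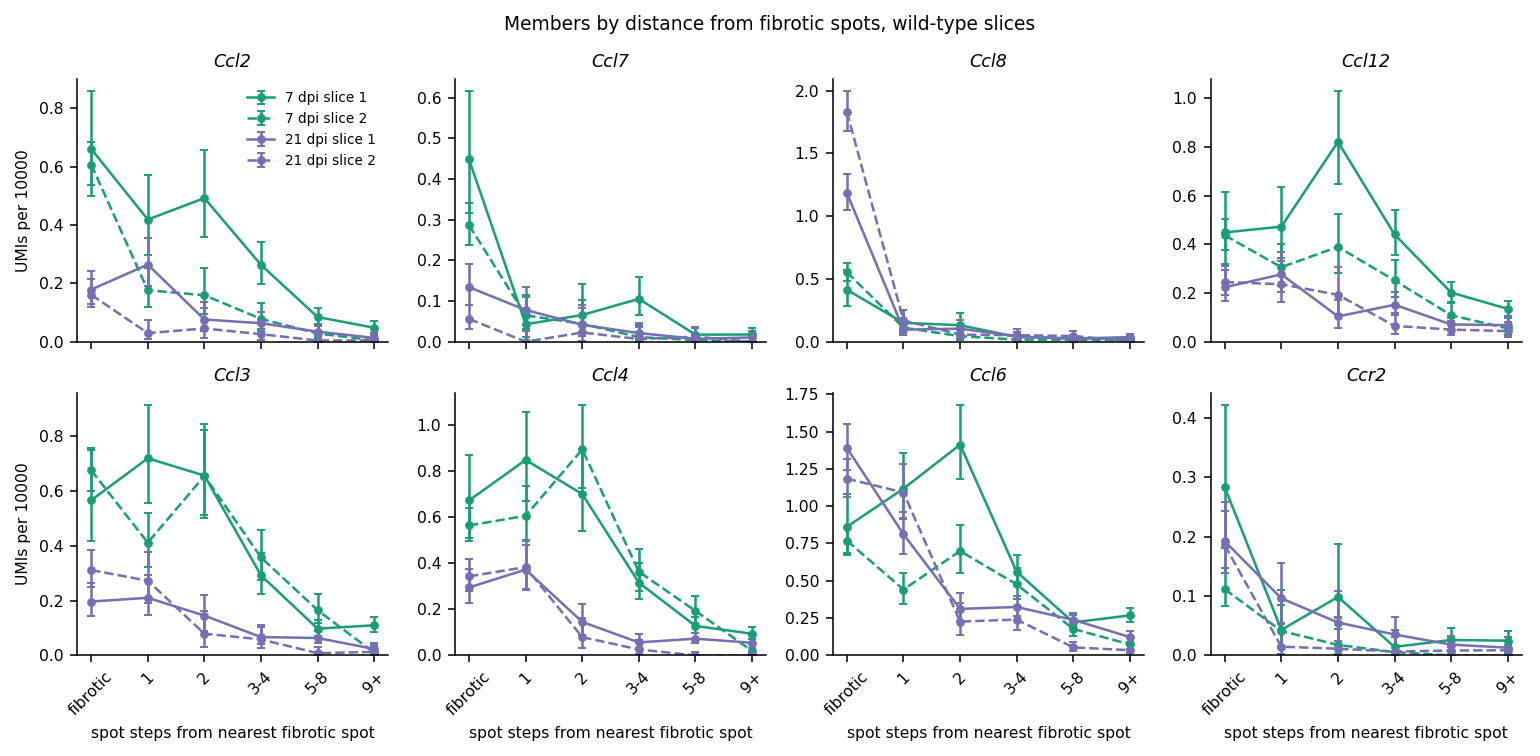
UMIs per 10000 of 8 genes against distance from the nearest fibrotic spot, in spot steps, in the 4 WT slices of 7 dpi (green) and 21 dpi (purple); solid lines are slice 1, dashed lines slice 2, and bars are exact 95% Poisson intervals. Ccl8 drops between fibrotic spots and 1 step in every slice, while Ccl3 and Ccl4 at 7 dpi stay high up to 2 steps.

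In fibrotic spots the 9 genes split between 7 and 21 dpi. Their sums were compared over 2 slices against 2 with edgeR, the deleter slices entering the fit as a group of their own, over 13289 genes. Of the 9, 3 were called higher at 7 dpi, where 1.89% of all genes were, and 1 was called higher at 21 dpi, where 2.50% were. The fall of Ccl2 and Ccl7 in these data was known when the set was drawn up. Their calls, and the count that holds them, therefore restate that choice and are no independent evidence. The median log2 fold change of the 9, 7 dpi over 21 dpi WT, was 0.93, beside 0.02 over all genes.

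Ccl2 was 0.661 and 0.608 UMIs per 10000 at 7 dpi, against 0.179 and 0.161 at 21 dpi WT, a log2 fold change of 1.91 ± 0.19 (SE, edgeR adjusted p = 0.000834). Ccl7, a further CCR2 ligand, was 0.449 and 0.287 against 0.134 and 0.0561, for 1.91 ± 0.37 (edgeR adjusted p = 0.0174). Both were lower at 21 dpi, without overlap of the slices. The call of Ccl7 was lost when slice 1 at 7 dpi (log2 fold change 1.65), slice 2 of that time (2.32) or slice 2 at 21 dpi (1.32) was left out.

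Ccl3 was 0.567 and 0.676 at 7 dpi, against 0.197 and 0.312 at 21 dpi WT, a log2 fold change of 1.32 ± 0.23 (edgeR adjusted p = 0.0105). Without slice 2 at 7 dpi it was 1.18 and not called. Ccl8 rose instead, from 0.413 and 0.553 at 7 dpi to 1.18 and 1.83 at 21 dpi WT, with -1.56 ± 0.22 (edgeR adjusted p = 0.00368). The calls of Ccl2 and Ccl8 held with each slice left out in turn.

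The other 5 genes did not pass. Ccl4, with 0.673 and 0.564 against 0.295 and 0.343, had a log2 fold change of 0.93 ± 0.25 (edgeR adjusted p = 0.0636). Ccl12, with 0.449 and 0.437 against 0.224 and 0.245, had 0.93 ± 0.34 (edgeR adjusted p = 0.167). Ccl9, with 0.697 and 0.669 against 0.443 and 0.333, had 0.84 ± 0.27 (edgeR adjusted p = 0.119).

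In each of these 3 the 7 dpi slices stood above the 21 dpi slices. Ccl6 stood the other way, with 0.862 and 0.769 at 7 dpi, against 1.39 and 1.18 at 21 dpi WT, and had -0.65 ± 0.18 (edgeR adjusted p = 0.0670). Ccr2, with 0.283 and 0.112 against 0.192 and 0.186, overlapped between the times and had -0.25 ± 0.37 (edgeR adjusted p = 0.780).

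With the deleter slices added to the 21 dpi group 7 of the 9 were called, Ccl12, Ccl4 and Ccl9 being added, and without a filter on low counts 8 were, Ccl6 being added as well. All the ligands together gave 4.77 and 4.56 UMIs per 10000 at 7 dpi, against 4.05 and 4.46 at 21 dpi WT, so the sums of the 7 dpi slices lay just above. Of the 6 monocyte genes Plac8, Vcan, Ly6c2 and Ms4a4c were called higher at 7 dpi, and Chil3 and S100a4 were not called. Chil3 was 0.106 and 0.102 at 7 dpi, against 0.143 and 0.102 at 21 dpi WT. S100a4 was 1.45 and 1.40 against 1.35 and 1.73. All 6 monocyte genes summed to 3.99 and 3.28 at 7 dpi, against 2.14 and 2.38 at 21 dpi WT, and their part in the chemokine values was not tested. Most of this sum came from S100a4 and Vcan in each slice. Vcan was 1.16 and 0.792 at 7 dpi, against 0.206 and 0.256 at 21 dpi WT. Lum and Dcn, genes of fibroblast matrix, were called higher at 21 dpi, 2 of the 6 fibroblast genes. Col3a1, at 19.0 and 32.8 against 18.4 and 26.7, was not called. Also higher at 21 dpi were 2 of 3 neutrophil genes tested (S100a8 and S100a9) and 2 of 3 plasma cell genes (Jchain and Igkc). So were 3 of 4 astrocyte genes (Gfap, Slc1a3 and Aqp4) and 1 of 4 T cell genes tested (Cd3d). The macrophage genes Lyz2 and Mrc1 were higher too, 1 each from lists of 10 and 6. Csf3r of the neutrophil list and Aldh1l1 of the astrocyte list were not called. The part of all these genes in the Ccl8 value was not tested. Lyz2 was 28.3 and 43.3 UMIs per 10000 at 7 dpi, against 68.4 and 63.1 at 21 dpi WT, while the macrophage genes Cd68 and Pf4 were called higher at 7 dpi.

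**Figure D5:**
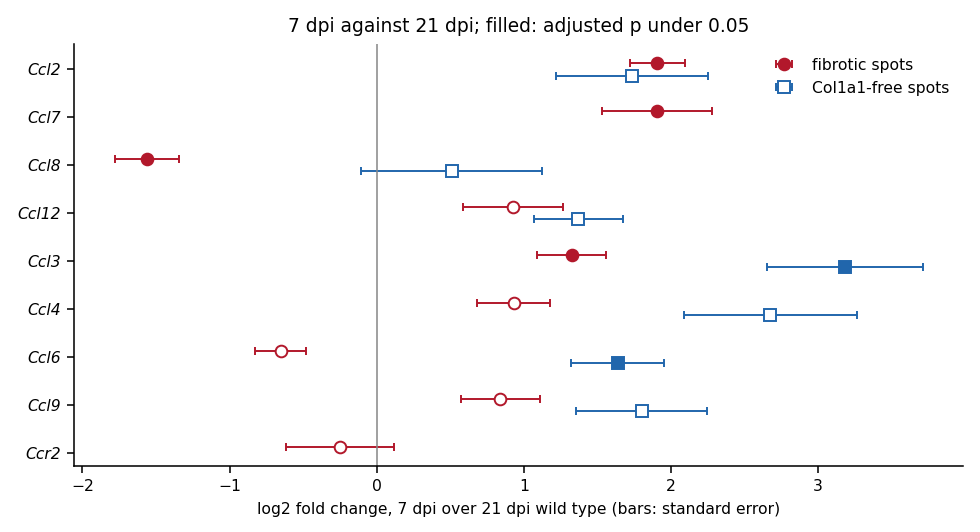
Log2 fold change of each gene, 7 dpi over 21 dpi WT, in fibrotic spots (red) and Col1a1-free spots (blue), with standard errors; filled marks have an edgeR adjusted p under 0.05, and Ccl7 and Ccr2 were too sparse for the test in Col1a1-free spots. Ccl8 (-1.56) and Ccl6 (-0.65) lie left of 0 in fibrotic spots, whereas Ccl6 (1.64) lies right of it in Col1a1-free spots.

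In Col1a1-free spots 7 of the 9 genes passed the filter on low counts, and 2 of these, Ccl3 and Ccl6, were called higher at 7 dpi, where 3.01% of 14149 genes were. None was called higher at 21 dpi, and all 7 had a positive log2 fold change of 7 dpi over 21 dpi WT, from 0.51 for Ccl8 to 3.18 for Ccl3.

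Ccl3 was 0.131 and 0.192 UMIs per 10000 at 7 dpi, against 0.0224 and 0.00908 at 21 dpi WT, a log2 fold change of 3.18 ± 0.53 (edgeR adjusted p = 0.0220). Ccl6 was 0.304 and 0.22 against 0.11 and 0.0515, for 1.64 ± 0.32 (edgeR adjusted p = 0.0385). The slices did not overlap in either gene. With one slice left out in turn, Ccl3 was never called (2.83 to 4.12), and Ccl6 was called only without slice 1 at 21 dpi (2.37).

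Ccl4 was 0.153 and 0.166 against 0.0383 and 0.00303, with 2.67 ± 0.59 (edgeR adjusted p = 0.0577). Ccl12 was 0.204 and 0.136 against 0.0739 and 0.0575, with 1.37 ± 0.30 (edgeR adjusted p = 0.0599). Ccl9 was 0.258 and 0.102 against 0.0528 and 0.0545, with 1.80 ± 0.44 (edgeR adjusted p = 0.0827).

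Ccl2 was 0.0957 and 0.041 against 0.0251 and 0.0151, with 1.74 ± 0.52 (edgeR adjusted p = 0.136). Ccl8, at 0.0352 and 0.0179 against 0.0224 and 0.0151, overlapped between the times (edgeR adjusted p = 0.717). Ccl7 gave 21 and 5 UMIs at 7 dpi, against 4 and 2 at 21 dpi WT, and Ccr2 gave 15, 1, 8 and 3. In the same spots 9 of the 10 phagocyte genes were called higher at 7 dpi, and their sum was 28.0 and 33.1 UMIs per 10000 at 7 dpi, against 10.5 and 6.62 at 21 dpi WT.

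The excess of Ccl6, a CCR1 ligand, differed between the times. Fibrotic over Col1a1-free spots, it was 1.74 ± 0.19 on the log2 scale at 7 dpi and 4.001 ± 0.20 at 21 dpi WT, and the difference between the times was -2.26 ± 0.28 (edgeR adjusted p = 0.00355). This difference was called with each slice left out in turn, between -1.98 and -2.79. Of the 9 it was the only one called, where 2.71% of 14477 genes had a larger excess at 21 dpi. Of 17 other chemokine, receptor and growth factor genes tested, 2 were also called with a larger excess at 21 dpi WT, namely Cxcl10 and Cxcl16.

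Ccl8 had a difference of -1.97 ± 0.57 (edgeR adjusted p = 0.104), Ccl3 -1.75 ± 0.59 (0.153) and Ccl4 -1.70 ± 0.65 (0.199), and none of these passed. Ccl2, with 0.27 ± 0.51, and Ccl12, with -0.34 ± 0.38, did not pass either (edgeR adjusted p = 0.835 and 0.685). Ccl9 had -0.80 ± 0.42, Ccr2 -0.13 ± 0.61 and Ccl7 -0.03 (edgeR adjusted p = 0.342, 0.9499 and 0.985). Of the phagocyte genes 8 of 10 also had a larger excess at 21 dpi, among them Cd68, Lyz2, Aif1 and Csf1r, and their part in the Ccl6 result was not tested.

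Between WT and deleter slices at 21 dpi no member was called. Of the 9 genes 0 were called between the groups in fibrotic spots (edgeR adjusted p = 0.654 to 0.951), where 0.0226% of 13289 genes were. At an unadjusted p under 0.05 edgeR gave 3, namely Ccl8, Ccl6 and Ccl12, where 839 of the 13289 genes were under it. DESeq2 gave 0 members after adjustment and 2 before it, where 230 genes were under an unadjusted p of 0.05.

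Ccl8 was 1.18 and 1.83 UMIs per 10000 in WT and 0.895 and 0.945 in deleter fibrotic spots, a log2 fold change of 0.71 ± 0.20 (edgeR adjusted p = 0.654). Ccl6 was 1.39 and 1.18 in WT and 0.771 and 0.981 in deleter spots, with 0.54 ± 0.17 (edgeR adjusted p = 0.704). Ccl12 was 0.224 and 0.245 against 0.199 and 0.0661, with 0.90 ± 0.38 (edgeR adjusted p = 0.768). All 3 were higher in both WT slices than in both deleter slices, but they were picked by this same comparison and none passed after adjustment.

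Ccl2 was 0.179 and 0.161 in WT and 0.183 and 0.19 in deleter fibrotic spots, and Ccr2 was 0.192 and 0.186 against 0.222 and 0.218. Their log2 fold changes were -0.15 and -0.23, and those of Ccl7, Ccl3, Ccl4 and Ccl9 were 0.33, 0.28, 0.28 and 0.18. Without slice 1 at 21 dpi the difference of Ccl8 was 0.97 and was called. In fibrotic spots of the deleter slices the ligand sum was 2.93 and 3.06, below the 4.05 and 4.46 of WT.

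Within Col1a1-free spots the ligands together were higher where phagocyte RNA was higher, and were counted in phagocyte-poor spots too. Spots were called phagocyte-rich when the 10 phagocyte genes exceeded 8.44 UMIs per 10000, the 95th percentile of the slice at rest. At 2 dpi the ligands together gave 3.98 UMIs per 10000 in 804 phagocyte-rich and 1.03 in 837 phagocyte-poor Col1a1-free spots. Of the 1641 Col1a1-free spots at 2 dpi 370 held under 1000 UMIs, where 1 phagocyte UMI was enough to pass the cut. Depth and phagocyte content are therefore mixed in the 2 dpi classes. At 7 dpi they gave 1.61 and 1.80 in rich and 0.195 and 0.0914 in poor spots, and at 21 dpi WT 0.748 and 0.586 in rich and 0.141 and 0.118 in poor spots.

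Ccl12 at 2 dpi was 1.73 in phagocyte-rich and 0.453 in phagocyte-poor spots, and Ccl2 0.695 and 0.266. The phagocyte-poor Col1a1-free spots of the slice at rest gave 0.0209 for Ccl12 and 0.00391 for Ccl2, so the poor spots at 2 dpi held more of both. At 7 dpi 111 of 112 and 390 of 392 fibrotic spots were phagocyte-rich, so the split could not be made there.

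Within the fibrotic spots of a slice, those with a Ccr2 UMI could be set against those without. The ligands together gave 6.32 and 6.66 UMIs per 10000 in spots with a Ccr2 UMI at 7 dpi and 4.21 and 4.24 in spots without. At 21 dpi WT they gave 4.59 (4.05 to 5.17) and 6.23 against 3.86 (3.56 to 4.17) and 3.98, so the counting intervals overlapped in slice 1. The direction of the sum was the same in all 4 slices, but spots with a Ccr2 UMI were also deeper, with medians of 14182 to 19901 UMIs against 4296 to 13676.

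Ccl8 at 21 dpi WT was 1.49 and 3.13 in spots with a Ccr2 UMI and 1.08 and 1.47 in those without. In the deleter slices it was 1.19 and 1.35 against 0.798 and 0.800. At 7 dpi Ccl8 was 0.309, from 7 UMIs, and 0.937 with a Ccr2 UMI, against 0.451 and 0.494 without. Ccl2 was 0.883 and 1.12 with a Ccr2 UMI at 7 dpi and 0.580 and 0.528 without. At 21 dpi WT Ccl2 was 0.0866 (0.0281 to 0.202) and 0.130 (0.0563 to 0.257), from 5 and 8 UMIs, against 0.211 (0.147 to 0.293) and 0.170 (0.120 to 0.233), so the counting intervals overlapped. In the deleter slices it was 0.360 and 0.408 with a Ccr2 UMI and 0.124 and 0.112 without, the direction of 7 dpi. Ccl7 at 21 dpi WT was also lower with a Ccr2 UMI, at 0.104 and 0.0326 from 6 and 2 UMIs, against 0.145 and 0.0625, with overlapping intervals. At 7 dpi Ccl7 was higher with a Ccr2 UMI, at 0.751 and 0.562 against 0.338 and 0.244. In the deleter slices Ccl7 was likewise higher, at 0.172 and 0.188 against 0.0363 and 0.0337. These are values over spots of 1 slice each, without a test.

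Other genes of the system were counted from a list of 23 chemokines, receptors and growth factors. In fibrotic against Col1a1-free spots at 7 dpi 10 of the 17 tested were called higher, where 22.2% of all genes were. Lower were 2, Ccl27a and Cx3cl1, where 20.6% of all genes were lower. At 21 dpi WT 11 were higher, where 29.0% of all genes were. The 5 lower were Ackr1, Ccl27a, Cx3cl1, Ccl17 and Il34, about the same share as the 27.4% of all genes that were lower. Ccr1, the receptor for CCL6 and CCL9, had an excess of 3.36 ± 0.43 at 7 dpi and 3.87 ± 0.56 at 21 dpi WT (edgeR adjusted p = 0.000215 and 0.000212).

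Between the times Csf1, the growth factor of macrophages, was the only one of 15 tested in fibrotic spots to be called. It was 1.35 and 1.73 UMIs per 10000 at 7 dpi, against 0.912 and 0.852 at 21 dpi WT, with 0.85 ± 0.15 (edgeR adjusted p = 0.0121). Ccr1 was 0.224 and 0.139 against 0.0849 and 0.0666 and was not called (edgeR adjusted p = 0.102). Ccl5 had a log2 fold change of 0.12 (edgeR adjusted p = 0.855).

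The genes most like each member were ranked over 16 region sums by Pearson correlation of log2(UMIs per 10000 + 0.1) among 14576 genes. The sums share slices, depth and the contrast of fibrotic and Col1a1-free tissue, so high values are common and are given as a description. They include the sparse fibrotic sums of the slices at rest (3 spots, 22228 UMIs) and at 2 dpi (26 spots, 56316 UMIs). There a single UMI moves a value far, so the ranking is partly open to counting error. Ccl8 was most like Lum (r = 0.984), a matrix gene of fibroblasts, followed by Adamts9 and Gstm2. Ccl7 was most like Plac8 (0.979), a gene of monocytes, and Ccl2 most like Tagln (0.969), a contractile protein of myofibroblasts and smooth muscle.

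Ccl12 was most like Nes (0.960), the filament of reactive astrocytes and vessel cells, and its likeness to the genes ranked next, Ube2c and Lockd, was 0.932 and 0.928. Ccl3 and Ccl4 were most like Slamf9 and Klhl6 (0.976 and 0.983), and Ccl6 most like Tmem37 (0.985). Ccl9 was nearest to Gbp7 (0.974) and Ccr2 nearest to Flnc (0.963). The receptor had 59 to 132 UMIs in each whole injured slice but far fewer in some region sums. In the Col1a1-free spots of slice 2 at 7 dpi, 1 of 228 spots held a Ccr2 UMI.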

How the data were processed

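Polyadenylated RNA was measured on 4 Visium capture areas with 2 fresh-frozen brain slices each. The authors aligned reads to mm10 with Space Ranger 2.0.0, as the labels and methods give, and the values they deposited are counts of UMIs for each gene in each spot, not normalized. Tissue spots were kept and joined into connected pieces, 2 per area. Labels do not say which piece of the first area is at rest. The piece of 1017 spots was taken as rest and that of 1726 as 2 dpi because the rule that defined this gene set names them so, and the basis of that rule is not given in the sources used here. Barcodes recur between areas (1564 to 1959 per pair) because each area carries the same printed set.

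Counts were summed per slice and region and tested with edgeR 4.0.16 in R 4.3.3 (filterByExpr, TMM, quasi-likelihood F test, Benjamini-Hochberg over all genes tested, threshold 0.05). The SE of a log2 fold change was taken as its size over the root of its F value. On simulated counts with 200 changed genes the test recovered 90% of 4-fold and 22% of 2-fold changes between 7 and 21 dpi in fibrotic spots (over 13222 genes). For the difference of the excess it recovered 51% and 3% (over 14160 genes), and between WT and deleter 90% and 21% (over 13209 genes). Changed genes were drawn only from those above a minimum mean count. Every simulated gene had the same spread, without slice or region effects. The shares were not computed for the members themselves. Alternatives were DESeq2 1.42.0, library size without TMM, no filter, at least 10 Col1a1 UMIs per 10000, at least 2 Col1a1 UMIs, spots with at least 1000 UMIs, WT slices alone, deleter slices added to 21 dpi, no slice block, and each slice left out in turn. Single values carry exact 95% Poisson intervals and shares are of spots; both cover counting error only. Each group was 2 slices. The spread behind a p-value was estimated over all slices of 7 and 21 dpi, deleter slices included, and moderated across genes. It rests on few slices and is not the spread of the compared groups alone. The slice at rest allows 0.00183 UMIs per 10000 for a gene with 0 UMIs.

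The members, the lists and the markers were chosen with earlier results of these data known, among them the fall of Ccl2 and Ccl7 between early and late fibrotic regions. All 9 members were kept in every comparison, called or not, and of the 23 related genes those past the threshold plus Ccr1, Ccl5 and Ackr1; 1 further gene of that rule is not reported here. Distances, the phagocyte split and the split by Ccr2 UMIs were chosen after seeing the data. Spots were given no cell type, and neither doublets nor cell makeup were estimated. Gene positions are from GENCODE M21 and promoter sequences from RefSeq.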

Additional observations from a re-analysis of the deposited data

Results flagged for a closer look

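The excess of Ccl6 in fibrotic over Col1a1-free spots differed between the times, with a difference of -2.26 on the log2 scale between 7 and 21 dpi WT (edgeR adjusted p = 0.00355). Ccl6 was higher in fibrotic spots in 4 of 4 slices. Its Col1a1-free spots gave 0.304 and 0.22 UMIs per 10000 at 7 dpi, against 0.11 and 0.0515 at 21 dpi WT, while its fibrotic spots gave 0.862 and 0.769 and then 1.39 and 1.18.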

How the results depend on the processing

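Across the alternatives the 9 genes gave 514 values with the same direction and call, 31 that newly passed, 13 that no longer passed and 15 that changed sign. Between 7 and 21 dpi in fibrotic spots 583 genes and 4 members were called. Without a filter on low counts these were 1317 and 8, and with the deleter slices added to 21 dpi 1019 and 7. In Col1a1-free spots 444 genes and 2 members were called, against 1702 and 6 without a filter, 1121 and 6 with deleter slices added, 547 and 4 by DESeq2 and 326 and 1 with WT slices alone. For the difference of the excess 445 genes and 1 member were called, against 867 and 2 at 10 or more Col1a1 UMIs per 10000, 1475 and 4 without a filter, and 790 and 2 with deleter slices added. Between WT and deleter 3 genes and 0 members were called, against 171 genes and 1 member without a filter and 9 genes by DESeq2. The cause of these shifts was not tested.

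With each slice left out in turn, 251 to 633 genes and 2 to 4 members were called between the times in fibrotic spots, 111 to 332 genes and 0 to 2 members in Col1a1-free spots, and 128 to 344 genes and 1 to 2 members for the difference of the excess. The excess itself gave 3041 to 4242 genes and 8 to 9 members at 7 dpi and 6209 to 6261 genes and 9 members at 21 dpi. WT against deleter gave 2 to 93 genes and 0 to 1 members. Without the slice as a block (no replicate block) 9, 9 and 1 members were called for the excess at 7 dpi, at 21 dpi and for its difference, and the value of Ccl6 was -2.24.

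All sign changes were in values that had not passed. For the difference of the excess, Ccl7 was 1.15 at 10 or more Col1a1 UMIs per 10000, 0.12 by DESeq2 and 0.33 with deleter slices added, and ran from -0.46 to 1.02 with each slice left out in turn. Ccr2 likewise ran from -0.44 to 1.11, and Ccl2 from -0.18 to 0.90. Between the times in fibrotic spots Ccr2 ran from -0.75 to 0.63, the highest without slice 2 at 7 dpi. For WT over deleter Ccr2 was 0.034 at 10 or more Col1a1 UMIs per 10000. With each slice left out in turn, Ccl7 ran from -0.39 to 0.87, Ccl3 from -0.11 to 0.55, Ccl4 from -0.016 to 0.77 and Ccl9 from -0.24 to 0.72. Without mitochondrial genes in the total, the 2 dpi slice gave 1.78 UMIs per 10000 for Ccl2, Ccl7, Ccl8 and Ccl12 together, against 1.57, and 0.867 for Ccl3, Ccl4, Ccl6 and Ccl9, against 0.766. Depth limits Ccl7 and Ccr2 most, which were too sparse for the test in Col1a1-free spots.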
